A study of Homo sapiens with 4 samples.

Results

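The transcripts of respiratory complexes II to V were followed in PRR11-silenced ACHN cells. The 45 members were chosen by name: 4 subunits of complex II, 10 of complex III, 14 of complex IV and 17 of complex V, of which 6 are encoded in mitochondrial DNA and 39 in the nucleus. All 45 were found among the 36359 genes of the count table, 15 ATP synthase genes under their older symbols, and all 45 were among the 21630 genes with enough counts to be tested.

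ACHN is an established human renal carcinoma line, grown in MEM with serum. The cells received a control siRNA (siNC, 2 libraries) or an siRNA against PRR11 (siPRR11, 2 libraries) by lipofection, and both groups therefore went through the same transfection. The labels give neither the time after transfection nor the siPRR11 duplex used, and do not say whether the 2 libraries of a group came from separate cultures, so that p-values measure the spread between these libraries, which may be technical. The libraries were made with a stranded mRNA kit from total RNA and held 59003839 to 92612749 counted reads. PRR11 itself was at 41.2 and 40.4 CPM (the count scaled to library size, normalized by the TMM method of edgeR) in siNC and at 15.3 and 14.01 CPM in siPRR11 libraries. The renal epithelial markers PAX8, KRT8 and KRT18 were at 281.2 to 374.6, 1169 to 1435 and 224 to 254.7 CPM in siNC libraries, and the blood and endothelial markers PTPRC, CD3E and PECAM1 stayed at or below 0.0935 CPM in every library. Of the 7 renal markers listed, KRT18 rose and KRT19 fell, and the part of this in the results below was not tested.

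Complex II (succinate dehydrogenase) oxidizes succinate and reduces ubiquinone. Complex III (the cytochrome bc1 complex) passes these electrons to cytochrome c, complex IV (cytochrome c oxidase) passes them on to oxygen, and the proton gradient built up on the way drives complex V, the ATP synthase. Complexes III, IV and V combine subunits from both genomes, whereas all subunits of complex II come from nuclear genes. The study also measured reactive oxygen species and the mitochondrial membrane potential in PRR11-silenced cells. Its gene set analysis of RNA from PRR11-silenced ACHN cells reported an association with oxidative phosphorylation, among other sets. The question addressed here is how the single mRNAs of these complexes differed. The counts hold no information on the amount or assembly of the proteins, and in bulk RNA a difference in the number of cells with a transcript cannot be told apart from one in the amount per cell.

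Among the members, 9 rose in siPRR11 cells and none fell at an adjusted p-value under 0.05 (edgeR's quasi-likelihood test, Benjamini-Hochberg adjustment over all genes tested). They were UQCR10 and CYC1 of complex III, COX5A, COX6C, COX7A2 and MT-CO1 of complex IV, and ATP5J, ATP5J2 and ATP5L of complex V. These 9 are 20% of the members, beside 16.7% of all genes tested that were called in either direction, 7.61% that were called higher and 9.14% that were called lower. The share of members called was thus near that of all genes, and the 2 directions were unevenly filled. Of the 33 members that averaged a log2 CPM of 5 or more, 6 were called, all higher, which is 18.2%, while among all 5493 genes at that level 27.6% were called and 12.1% were called higher. At an unadjusted p under 0.05 the count of members was 16 of 45, or 35.6%, beside 30.3% of all genes, and DESeq2 called 10 members, all higher, beside 19.7% of the 17112 genes to which it gave an adjusted p. Both counts are near the background.

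The changes were small. The fitted log2 fold changes of the 45 members ran from -0.16 for COX4I1 to 0.53 for ATP5L, with a median of 0.12, beside a median of 0.00 over all genes tested. Values above 0 were found for 36 members, or 80% of them, compared with 50.3% of all genes. In 26 members both siPRR11 libraries lay above both siNC libraries, which is 57.8%, beside 29.1% of all genes. In 4 members, SDHB, COX4I1, COX7C and ATP5D, the siPRR11 pair lay under the siNC pair, beside 29.3% of all genes, and the groups of the other 15 overlapped.

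**Figure D1:**
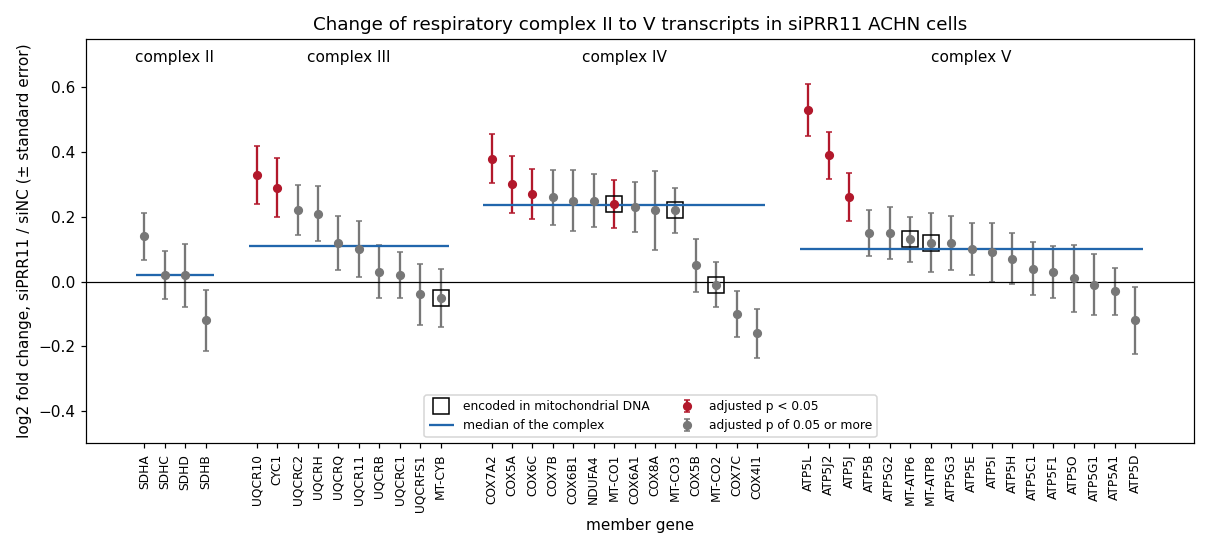
Log2 fold change (siPRR11 over siNC, vertical axis) of each member gene (horizontal axis) with its standard error, grouped by complex; red points have an adjusted p under 0.05, open squares mark genes of mitochondrial DNA and blue lines the median of a complex. The 9 red points all lie above 0, and the complex II points lie between -0.12 and 0.14.

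Nuclear genes of the respiratory chain are often read from promoters bound by the ETS factor GABP (nuclear respiratory factor 2), by NRF1 and by YY1. RefSeq windows of 300 bases in GRCh38.p14, from 250 bases before to 50 after a gene's start, were held for 30 of the 39 nuclear members, and the window at the canonical start was used where a gene had several. The letters CCGGAAG, an ETS core, were found on either strand in 15 of the 30 windows (50%), against 12.8% of 22199 windows of protein-coding genes. Those 22199 include every window of a gene with several, so for all 3 motifs the 2 sets were not chosen alike. The letters GCGCNTGCG of the NRF1 motif were found in 11 (36.7% against 9.53%) and AANATGGC of the YY1 motif in 12 (40% against 7.37%). Among the 5 windows of genes that rose, 2 held the ETS letters, 1 the NRF1 letters and 3 the YY1 letters, and among the 25 windows of members that were not called the counts were 13, 10 and 9. Each motif was searched on both strands, none of the 3 spellings contains another, and a match describes the window only.

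The 5 windows of genes that rose are shown so that the start regions of these genes can be compared. No window was held for CYC1, COX6C and ATP5J2, the other nuclear members that rose. Each run covers 150 bases before and 30 after the start, 5′ to 3′ on the strand of the gene, and capitals mark a match to any of the 3 motifs.
ATP5L, chr11:118401456-118401635, plus strand: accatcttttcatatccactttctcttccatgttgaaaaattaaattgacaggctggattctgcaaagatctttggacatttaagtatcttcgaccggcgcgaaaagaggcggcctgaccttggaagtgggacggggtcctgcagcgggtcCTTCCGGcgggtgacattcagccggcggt
ATP5J, chr21:25734875-25735054, minus strand: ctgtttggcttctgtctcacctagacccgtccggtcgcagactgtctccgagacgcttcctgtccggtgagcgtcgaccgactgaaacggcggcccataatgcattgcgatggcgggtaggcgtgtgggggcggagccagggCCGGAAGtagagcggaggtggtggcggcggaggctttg
COX7A2, chr6:75243772-75243951, minus strand: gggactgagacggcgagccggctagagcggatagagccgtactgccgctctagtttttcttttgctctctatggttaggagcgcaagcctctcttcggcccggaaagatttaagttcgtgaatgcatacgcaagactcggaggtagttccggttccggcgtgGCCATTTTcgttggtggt
COX5A, chr15:74938044-74938223, minus strand: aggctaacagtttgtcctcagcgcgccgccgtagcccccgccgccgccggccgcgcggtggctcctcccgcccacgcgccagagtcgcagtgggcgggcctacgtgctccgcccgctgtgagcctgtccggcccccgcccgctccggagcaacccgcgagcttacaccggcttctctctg
UQCR10, chr22:29767219-29767398, plus strand: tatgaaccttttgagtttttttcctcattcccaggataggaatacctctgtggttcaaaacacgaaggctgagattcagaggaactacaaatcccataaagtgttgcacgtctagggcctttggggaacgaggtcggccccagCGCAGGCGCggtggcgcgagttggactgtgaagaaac
The share of G and C was 75% in the run of COX5A, 65% in that of ATP5J, 55% in that of COX7A2, 51.1% in that of ATP5L and 50.6% in that of UQCR10. ATP5L and ATP5J each show the ETS letters within a few bases of the start, COX7A2 the YY1 letters just after it and UQCR10 the NRF1 letters across it, whereas the run of COX5A holds none of the 3. In the whole window, ATP5J has a further match to the ETS letters and one to the YY1 letters upstream of the printed run, and UQCR10 one to the YY1 letters that reaches past its end.

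Levels of different genes were compared as CPM per kilobase of exonic length. This length is the union of all exons of a gene in the authors' annotation, which reaches 14160 bases in SDHC and 10908 in ATP5A1, so that a gene with long rare isoforms has a low value on this scale. The mitochondrial transcripts stood far above the nuclear ones. MT-ATP6 was the highest gene of all those tested in siNC cells, with 10299.4 and 9931 CPM per kilobase, followed by MT-CO3 with 8977.5 and 8981, and the lowest of the 6, MT-CYB, had 1285 and 1546. Genes of mitochondrial DNA contributed 86.9% to 87.8% of the counts on the members in every library.

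Among the nuclear members the level per kilobase in siNC cells ran from 127.6 for UQCRH, the hinge protein of complex III, to 4.83 for ATP5G3. UQCRH, ATP5B (123.4), COX5B (120.6) and COX4I1 (101.1) were the 4 nuclear members above 100 CPM per kilobase. ATP5B encodes the catalytic β subunit of the F1 head. In complex II, SDHA, the flavoprotein with the succinate site, was highest at 21.8, and the membrane anchors SDHD and SDHC were lowest at 6.04 and 5.45. The order of the nuclear members within complexes II and III was the same in siPRR11 as in siNC cells. In complex IV COX6A1 and COX7C exchanged places, and in complex V ATP5L moved from the seventh to the fifth place, beside exchanges between neighbours at lower levels.

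**Figure D2:**
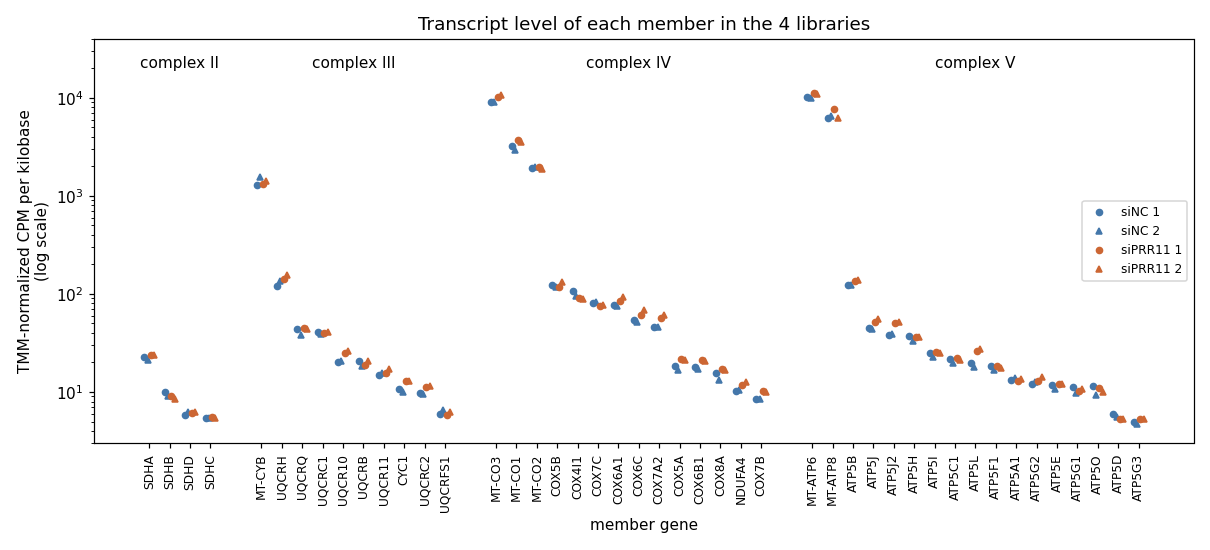
Level of each member (horizontal axis) as TMM-normalized CPM per kilobase of exonic length on a log scale, with 1 point for each of the 2 siNC (blue) and 2 siPRR11 (orange) libraries. The 6 genes of mitochondrial DNA lie above every nuclear member, and the nuclear members lie between 4.68 and 155 CPM per kilobase.

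No subunit of complex II changed past the threshold. SDHA was at 189 and 176.2 CPM in siNC and at 201.6 and 200.4 CPM in siPRR11 libraries, so that the groups did not overlap, and its log2 fold change of 0.14 had a standard error of 0.0727 (adjusted p = 0.226, edgeR). SDHB, the iron-sulfur subunit, was at 24.7 and 22.7 CPM against 22.5 and 21.1 CPM, a log2 change of -0.12 ± 0.0937 (SE, adjusted p = 0.417, edgeR). SDHC and SDHD both had a log2 fold change of 0.02, and SDHC differed by less than 2 CPM between any of the libraries. The median of the complex was 0.02. The rows of 3 SDHA pseudogenes, SDHAP1, SDHAP2 and SDHAP3, together with SDHA share near-identical sequence and held 9.08%, 2.87% and 4.91% as many counts as SDHA. With their counts added to it the log2 fold change of SDHA was 0.15.

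In complex III the members that rose were CYC1 and UQCR10, or 20% of the complex, beside 16.7% of all genes called in either direction. CYC1, on chromosome 8 of GRCh38 from 144095027 to 144097525, encodes cytochrome c1, the heme protein that hands electrons to cytochrome c. It was at 21.4 and 19.97 CPM in siNC and at 25.4 and 25.3 CPM in siPRR11 libraries, a log2 change of 0.29 ± 0.0902 (SE, adjusted p = 0.0442, edgeR). UQCR10, a small subunit without a redox group on chromosome 22 from 29767369 to 29770413, went from 19.6 and 20.3 CPM to 24.4 and 25.7 CPM, a log2 change of 0.33 ± 0.0903 (SE, adjusted p = 0.0269, edgeR). In both genes the groups lay further apart than the libraries within a group, but CYC1 was called in 1 and UQCR10 in 2 of the 4 fits that left out a library.

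Of the 3 subunits of complex III that carry a redox group, CYC1 alone passed the threshold. Cytochrome b is the product of MT-CYB, which was at 1466 and 1764 CPM in siNC and at 1514 and 1611 CPM in siPRR11 libraries. Its 2 siNC libraries were the lowest and the highest of the 4, and its log2 fold change of -0.05 had a standard error of 0.0898. UQCRFS1, the Rieske iron-sulfur protein, overlapped between the groups as well, with 20.9 and 22.5 against 20.3 and 21.8 CPM (log2 fold change -0.04). UQCRC2 and UQCRH lay higher in both siPRR11 libraries, with log2 fold changes of 0.22 (adjusted p = 0.069) and 0.21 (adjusted p = 0.112, both edgeR), while UQCRC1, the other core protein, had 0.02. The remaining members, UQCRB, UQCRQ and UQCR11, lay between 0.03 and 0.12. The median of complex III was 0.11.

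Complex IV had the highest median of the 4 complexes, 0.24, and 10 of its 14 members were higher in both siPRR11 libraries than in either siNC library, which is 71.4%, beside the 29.1% of all genes given above. Of these 10, 4 passed the adjusted threshold, or 28.6% of the complex, beside 16.7% of all genes and 27.6% of genes with a log2 CPM of 5 or more, and differences between the complexes were not tested, since subunits of a complex are not replicates. COX7A2, a small membrane subunit on chromosome 6 from 75237675 to 75250323, was at 87.5 CPM in both siNC libraries and at 109.7 and 118.5 CPM in siPRR11 libraries. Its log2 change of 0.38 ± 0.0754 (SE, adjusted p = 0.00511, edgeR) was the largest of complex IV. COX5A, on chromosome 15 from 74919791 to 74938168, encodes a subunit on the matrix side and went from 25.9 and 23.6 to 30.8 and 30.3 CPM, a log2 fold change of 0.30 (adjusted p = 0.0394, edgeR), which was called in 1 of the 4 fits that left out a library. COX6C, on chromosome 8 from 99873200 to 99894062, was at 166.8 and 160.5 against 186.4 and 208.4 CPM (log2 fold change 0.27, adjusted p = 0.0345, edgeR). For COX6C the 2 siPRR11 libraries were further apart than those of siNC, and both lay above the siNC values.

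A second block of complex IV genes had nearly the same size of change without passing the threshold. COX7B (log2 fold change 0.26, adjusted p = 0.0575), NDUFA4 (0.25, adjusted p = 0.0638), COX6B1 (0.25, adjusted p = 0.0946), COX6A1 (0.23, adjusted p = 0.0658) and COX8A (0.22, adjusted p = 0.26, all edgeR) were each higher in both siPRR11 libraries. NDUFA4 was first assigned to complex I and is now placed in complex IV. COX8A was the least covered member, with 391 counts in 1 siNC library, and its standard error of 0.123 was the largest of the 45. The lowest value among all members was that of COX4I1, which encodes the largest nuclear subunit of complex IV. It was at 509.2 and 459.5 CPM in siNC and at 436.4 and 428 CPM in siPRR11 libraries, a log2 change of -0.16 ± 0.0753 (SE, adjusted p = 0.165, edgeR). COX7C had -0.10, with 162.3 and 164.2 against 150.7 and 153.5 CPM, and COX5B had 0.05 with overlapping groups.

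**Figure D3:**
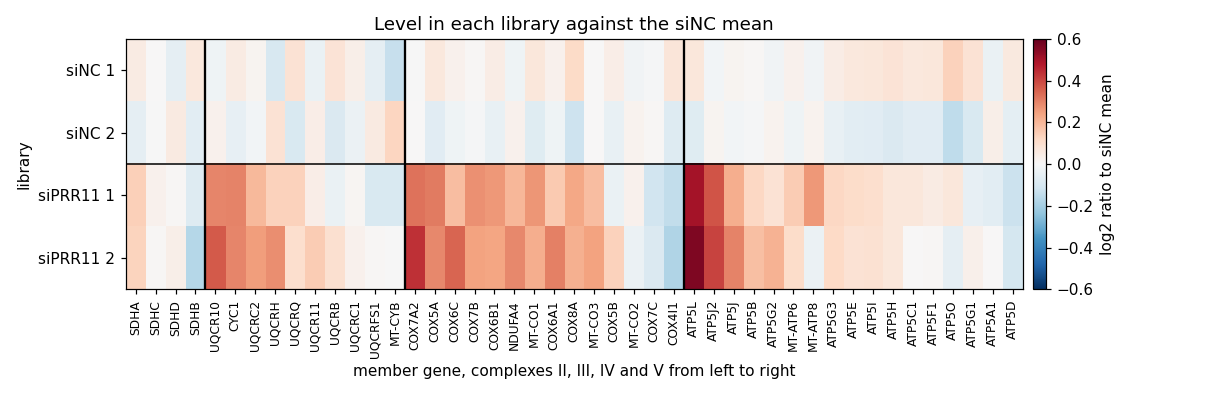
Log2 ratio of the TMM-normalized level in each library (rows) to the siNC mean, for the members (columns) of complexes II, III, IV and V from left to right, ordered within a complex by log2 fold change; red is higher and blue lower. Both siPRR11 rows are red over most of complex IV, and ATP5L has the deepest red.

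The catalytic subunits of complex IV are encoded in mitochondrial DNA, where the genes MT-CO1, MT-CO2, MT-ATP8, MT-ATP6 and MT-CO3 follow each other on 1 strand and are cut from a common precursor. MT-CO1, at positions 5904 to 7445, encodes the subunit that reduces oxygen. It was at 4957 and 4505 CPM in siNC and at 5689.8 and 5509 CPM in siPRR11 libraries, a log2 change of 0.24 ± 0.0751 (SE, adjusted p = 0.0454, edgeR). MT-CO3, at positions 9207 to 9990, was at 7038 and 7041 CPM against 8016 and 8326 CPM, and its log2 fold change of 0.22 just missed the threshold (standard error 0.0699, adjusted p = 0.0557, edgeR). MT-CO2 lies between these genes and encodes the subunit that accepts electrons from cytochrome c. It was at 1318 and 1355 CPM in siNC and at 1361 and 1302 CPM in siPRR11 libraries, a log2 change of -0.01 ± 0.0701 (SE, adjusted p = 0.974, edgeR). Per kilobase, MT-CO1 was 1.67 and 1.48 times as high as MT-CO2 in siNC and 1.86 and 1.88 times as high in siPRR11 libraries, and MT-CO3 was 4.66 and 4.54 times as high in siNC and 5.14 and 5.58 times in siPRR11 libraries. Neither ratio overlapped between the groups, but both restate the values of the single genes and were not tested. For MT-CO1 over MT-CO2 the gap between the groups was no larger than that between the siNC libraries.

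The mitochondrial genes of complex V encode subunit a (MT-ATP6), which carries the proton channel, and the small subunit A6L (MT-ATP8), on 1 shared mRNA. MT-ATP6 was at 7014 and 6763 CPM in siNC and at 7647 and 7428 CPM in siPRR11 libraries, a log2 change of 0.13 ± 0.0703 (SE, adjusted p = 0.241, edgeR). MT-ATP8 was at 1306 and 1341 CPM against 1583 and 1293 CPM, so that 1 siPRR11 library was the highest and the other the lowest of the 4. The reading frames share 46 bases, positions 8527 to 8572 of the mitochondrial chromosome (16569 bases in the GRCh38 reference), shown here because reads in them cannot be given to 1 gene. The run covers chrM:8507-8592 on the plus strand, with the shared bases in capitals.
MT-ATP8 and MT-ATP6: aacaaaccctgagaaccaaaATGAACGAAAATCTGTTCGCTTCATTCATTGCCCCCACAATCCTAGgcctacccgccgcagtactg
The capitals open with the start codon of MT-ATP6 and close with the stop codon of MT-ATP8. They make up 22.2% of the length of MT-ATP8, and per kilobase MT-ATP8 stood at 0.612 and 0.652 of MT-ATP6 in siNC and at 0.681 and 0.573 in siPRR11 libraries.

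Copies of these genes in the nuclear genome can take reads from them. A stretch of chromosome 1 holds near-identical copies. The counts on its copies of members ran from 26.6% (MTATP6P1) down to 0.0524% (MTATP8P1) of those on the mitochondrial gene. MTATP6P1, from 633696 to 634376, held 26.6% as many counts as MT-ATP6, MTCO1P12, from 631074 to 632616, held 4.19% as many as MT-CO1, and MTCO3P12, from 634376 to 634922, held 0.478% as many as MT-CO3. MTCO1P12 changed by 0.45 on the log2 scale (adjusted p = 0.00156) and MTCO3P12 by 0.39 (adjusted p = 0.0197, both edgeR), while MTATP6P1 had 0.11, MTCO2P12 0.01 and MTATP8P1, with 233 counts over all libraries, 0.27 (adjusted p = 0.592, edgeR). How reads were divided between the copies and the mitochondrial genes was not tested. When the counts of 118 pseudogene rows were added to the members, a choice made after seeing the data, MT-CO1 changed by 0.25 on the log2 scale (adjusted p = 0.0378, edgeR), MT-ATP6 had 0.13 and the same 9 members were called.

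Transcripts of complex I from the same chromosome gave no call. Over its 7 genes the log2 fold changes ran from -0.06 for MT-ND2 to 0.15 for MT-ND3, with a median of 0.04, beside a median of 0.12 and a range of -0.05 to 0.24 for the 6 members. The large rRNA, MT-RNR2, was at 9437 and 8384 CPM against 9556 and 9273 CPM (log2 fold change 0.08), and the small rRNA, MT-RNR1, was lower in both siPRR11 libraries (log2 fold change -0.26, adjusted p = 0.036, edgeR). All genes of the mitochondrial chromosome took 4.99% and 4.96% of counts in siNC and 5.58% and 5.49% in siPRR11 libraries. The part of this share in the results for single members was not tested, and a fit without the genes of this chromosome called the same 8 nuclear members.

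**Figure D4:**
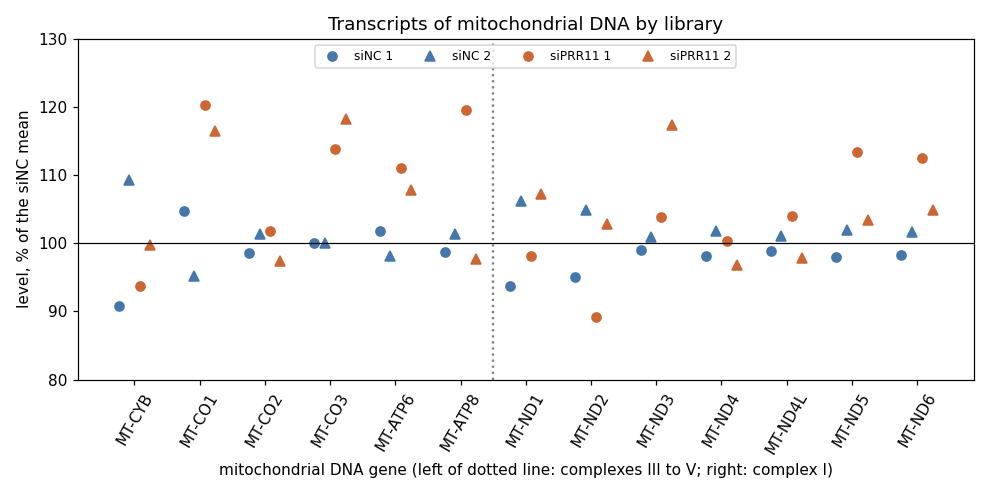
Level of 13 protein-coding genes of mitochondrial DNA (horizontal axis) in each library as a percentage of the siNC mean (vertical axis, which does not start at 0), with siNC in blue and siPRR11 in orange. Both orange points lie above both blue points for MT-CO1, MT-CO3 and MT-ATP6 among the members, and the points of MT-CO2, MT-ATP8 and MT-CYB overlap.

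Complex V consists of F1, the head where ATP is made with its central stalk, and the membrane part Fo with the peripheral stalk. None of the 5 F1 genes passed the threshold. ATP5A1 (α) had a log2 fold change of -0.03 and ATP5C1 (γ) one of 0.04, both with overlapping groups. ATP5B (β) was at 287.5 and 285.6 CPM in siNC and at 311.9 and 324.4 CPM in siPRR11 libraries (log2 fold change 0.15, adjusted p = 0.169, edgeR). ATP5D (δ), at 13.5 and 12.5 against 11.9 and 12.1 CPM, had the lowest value of the complex, -0.12 (adjusted p = 0.485, edgeR), and ATP5E (ε) had 0.10. The median of the F1 genes was 0.04.

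The 3 genes of complex V that rose all belong to the other part. They are 17.6% of the complex, beside 16.7% of all genes called in either direction. A difference between the 2 parts was not tested. ATP5L (current symbol ATP5MG), on chromosome 11 from 118401154 to 118431496, encodes subunit g, which sits in the membrane where 2 synthases meet. It was at 66.4 and 60.2 CPM in siNC and at 89.6 and 93.2 CPM in siPRR11 libraries, 44.3% higher, with a log2 change of 0.53 ± 0.0798 (SE, adjusted p = 0.0011, edgeR). ATP5J2 (ATP5MF), on chromosome 7 from 99448475 to 99466331, encodes the neighbouring subunit f and went from 87.1 and 89.3 to 114.6 and 117 CPM, 31.3% higher (log2 fold change 0.39, standard error 0.0724, adjusted p = 0.00352, edgeR). These 2 genes had the largest changes of all members, and each was called in every fit that left out a library. ATP5J (ATP5PF), on chromosome 21 from 25716503 to 25735673, encodes coupling factor 6 of the peripheral stalk. It was at 92.4 and 90.5 CPM against 106.2 and 112.4 CPM (log2 fold change 0.26, adjusted p = 0.0336, edgeR). Exons of GABPA and JAM2 on the other strand cover 23.1% of the exonic bases of ATP5J, and exons of a read-through gene and PTCD1 on the same strand cover 8.57% of those of ATP5J2. GABPA was at 0.12 on the log2 scale (adjusted p = 0.294, edgeR).

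Other parts of the stalk and ring did not pass the threshold. ATP5F1 (subunit b), ATP5H (d) and ATP5O (OSCP), which build the peripheral stalk with ATP5J, had log2 fold changes of 0.03, 0.07 and 0.01. The ring subunit c is encoded by ATP5G1, ATP5G2 and ATP5G3, with log2 fold changes of -0.01, 0.15 and 0.12, and ATP5I (subunit e), the partner of subunit g in the membrane, had 0.09. ATP5O was at 38.3 and 31.2 CPM in siNC, on either side of both siPRR11 libraries. Over the 10 nuclear genes of Fo and the peripheral stalk the median was 0.11 and 3 rose. This is 30%, beside 16.7% of all genes and 27.6% of genes with a log2 CPM of 5 or more. The median over all 17 members of complex V was 0.10. Exons of MYL5 on the other strand cover 61.6% of the exonic bases of ATP5I. In all, 12 of the 45 members have over 10% of their exonic bases covered by another gene, and their values are uncertain. For genes on the other strand this is because the strand setting of the counting is not given in the sources used here. For genes on the same strand, as in COX8A (34.5%) and ATP5O (19.6%), no strand setting separates the reads.

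Summed over the subunits, CPM per kilobase of the nuclear members was 1289.7 and 1253 in siNC and 1364 and 1428 in siPRR11 libraries, and that of the mitochondrial members was 32009.8 and 31838 against 36106 and 34662. Complex IV had sums of 14678 and 14416 in siNC and of 16472 and 16700.0 in siPRR11 libraries, most of it from MT-CO3. The sum of complex III was 1571 and 1840.3 against 1642 and 1746, which overlapped through MT-CYB, while its nuclear part, 286.4 and 294.3 against 315.6 and 334.6, did not. The complex II sums of 43.9 and 41.9 in siNC lay below those of 44.8 and 44.1 in siPRR11 libraries by less than the gap between the siNC libraries. With 2 libraries against 2, no exact permutation test of such a sum can pass 0.05, and none was run.

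Genes that help to build these complexes were also listed. Of 38 assembly factors listed, 37 were in the table and tested, and their median log2 fold change was -0.07. Of these 37, 3 rose and 1 fell, which is 10.8% called, beside 16.7% of all genes. COX17, the copper chaperone of complex IV, rose from 32.1 and 29.3 to 41.9 and 41.3 CPM (log2 fold change 0.44, adjusted p = 0.00493, edgeR). CMC2 rose by 0.39 and UQCC1, which acts early in complex III assembly, by 0.30, while PET117 of complex IV fell (log2 fold change -0.39, adjusted p = 0.0168, edgeR). Exons of KAT14 on the same strand cover 62.4% of the exonic bases of PET117 and those of POPDC2 17.6% of the bases of COX17, so that both values are uncertain. The assembly factors of complex IV had a median of -0.07 and 17 of 24 were below 0, beside 0.24 for the subunits of that complex. The difference between these medians was not tested.

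Other proteins of the pathway included 2 that rose. ATPIF1, the inhibitor protein that stops the synthase from running in reverse, was at 218.3 and 197.2 CPM in siNC and at 254.3 and 257.5 CPM in siPRR11 libraries (log2 fold change 0.30, adjusted p = 0.0184, edgeR). CYCS, the cytochrome c that carries electrons from complex III to complex IV, was at 413.1 and 423.8 against 499.3 and 487.8 CPM (log2 fold change 0.24, adjusted p = 0.0355, edgeR). The membrane subunits USMG5 and C14orf2 of the ATP synthase had log2 fold changes of 0.32 and 0.23 (adjusted p = 0.0576 and 0.0988, edgeR) and the coupling factor gene ATP5S had 0.09. Of 9 isoform or paralog genes of the members, COX4I2, COX6A2, COX7A1, COX7B2 and COX8C had too few counts to be tested, none above 0.121 CPM in a library, and COX6B2, COX7A2L, NDUFA4L2 and UQCRHL did not pass the threshold. The muscle, lung or testis forms of complex IV subunits were thus at or near 0 in these cells, beside the widely expressed forms among the members.

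Among 15 nuclear regulators of mitochondrial genes, none rose and 2 fell, which is 13.3% called, beside 16.7% of all genes. Their median log2 fold change was -0.06. POLRMT, the RNA polymerase of mitochondria, was at 41.9 and 37.0 CPM in siNC and at 29.96 and 27.5 CPM in siPRR11 libraries (log2 fold change -0.46, adjusted p = 0.00632, edgeR). C10orf2, the helicase Twinkle of mitochondrial DNA, fell by 0.47 on the log2 scale (adjusted p = 0.0197, edgeR). NRF1, TFAM, YY1 and PPARGC1A did not pass the threshold, with log2 fold changes of -0.24, 0.05, -0.06 and 0.37. Of the 37 nuclear subunits of complex I, 7 rose and 1 fell, which is 21.6% called, with a median of 0.13, against 8 of 39, or 20.5%, and a median of 0.12 for the nuclear members. NDUFA8 was among those that rose (log2 fold change 0.60, adjusted p = 0.00148, edgeR).

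Single libraries decided part of the calls. Without siPRR11 library 1 the number of members called was 4, all higher, beside 9.68% of all genes, and without siPRR11 library 2 it was 3, beside 10.6%, where the lone library of the group is assumed to vary like the pair of the other group, as in the next fits. Without siNC library 1 it was 11, beside 20.2% of all genes, and without siNC library 2 it was 8, beside 17.7%, of which 7 were higher and COX4I1 was lower. The log2 fold changes of the 9 genes that rose remained above 0 in each of these fits and lay between 0.17 and 0.60. CYC1 and COX5A were each called in 1 of the 4 fits, that without siNC library 1. UQCR10, MT-CO1 and ATP5J were called in 2 of 4, COX6C and COX7A2 in 3 of 4, and ATP5J2 and ATP5L in all 4. Without siNC library 2 the calls lost were those of CYC1 (log2 fold change 0.24, adjusted p = 0.117), COX5A (0.23, adjusted p = 0.119) and MT-CO1 (0.17, adjusted p = 0.133, all edgeR). Without siPRR11 library 1 those of UQCR10, CYC1, COX5A, MT-CO1 and ATP5J were lost, and without siPRR11 library 2 those of UQCR10, CYC1, COX5A, COX6C, COX7A2 and ATP5J.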

How the data were processed

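RNA of ACHN cells, labelled siNC (2 libraries) and siPRR11 (2 libraries), was sequenced with a stranded mRNA kit. The deposited raw counts per gene were made by the authors with Trimmomatic 0.36, an alignment to GRCh38 and featureCounts (Subread 1.5.1); the strand setting and annotation release are not given in the sources used here. The deposited RPKM values, made by the authors, equalled count over exonic length over total count to within 3.08e-06% for 15916 genes.

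Counts were fitted with edgeR 4.0.16 (R 4.3.3): filterByExpr left 21630 of 36359 genes, TMM factors were 0.983 to 1.018, and glmQLFit with glmQLFTest compared siPRR11 with siNC, with Benjamini-Hochberg adjustment and a threshold of 0.05. SE is the absolute log2 change divided by the square root of F. On simulated counts the main test recovered 3 of 50 genes changed by 0.25 on the log2 scale, 34 of 50 changed by 0.5 and 50 of 50 changed by 1. The simulation held fewer changed genes than the data, and these were drawn from genes with an average log2 CPM of 1 or more. The members lay from 3.005 (COX8A) to 12.89 (MT-CO3) on that scale, so the recovery rate for members themselves was not measured. A member that did not pass the threshold may thus still have changed by about 0.25. DESeq2 1.42.0, limma 3.58.1 on log2(RPKM + 1) and log2(RPKM + 0.1), other filters, scaling and left-out libraries were alternatives. Every member and every listed gene is named by list; lists and members were chosen with earlier results of these data known. The replicate spread (common biological coefficient of variation 0.0856) limits precision more than depth. Some listed genes that are not members are not reported here.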

Additional observations from a re-analysis of the deposited data

How the results depend on the processing

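ATP5L and ATP5J2 were called under every alternative tried, and none of the 9 members that rose changed direction under any. The number of members called was 9 with RLE scaling, beside 3618 of 21630 genes, and 9 with the edgeR exact test, beside 4209 of 21630. It was 10 with DESeq2, beside 19.7% of 17112 genes, and 12 without a filter, beside 4460 of 34506. With at least 10 counts in every library it was 11, beside 3779 of 19664 genes. With limma it was 8 and 9 (pseudocounts of 1 and 0.1), beside 1775 and 1878 of 21630 genes. Of these members, 7 each time were among the 9. MT-CO1 was not called with at least 10 counts in every library (adjusted p = 0.053, edgeR) or with limma (adjusted p = 0.279 and 0.274). COX6C was not called with limma (adjusted p = 0.0609 and 0.0559). With limma on log2(RPKM + 1), 1775 genes were called, 1091 higher and 684 lower, and the median log2 change was 0.06 in complex II and 0.15 in complex III; with log2(RPKM + 0.1), 1878 genes were called, 726 of them lower, and the medians were 0.07 in complex II, 0.16 in complex III, 0.28 in complex IV and 0.17 in nuclear members. Of the calls, 61.46% and 61.34% were higher with limma, against 45.42% in edgeR. The cause was not tested. Members whose small negative value turned positive were UQCRFS1 (0.0047 and 0.01 with pseudocounts of 1 and 0.1), MT-CYB (0.01), MT-CO2 (0.04, and 0.0032 with at least 10 counts in every library), ATP5A1 (0.02) and ATP5G1 (0.04).

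The groups share replicate numbers, but with 2 pairs these are only numbers: the difference between replicates 1 and 2 correlated between the groups at 0.165 over all genes and 0.341 over the members. A fit with the replicate block called 6988 of 21630 genes, 3338 higher and 3650 lower, and 17 of 45 members, 16 of them higher.

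Leaving out 1 library at a time gave 2172 to 4590 genes called (945 to 2173 higher, 1227 to 2417 lower) and 3 to 11 members called and called higher. The median ran from -0.01 to 0.04 in complex II, 0.09 to 0.13 in complex III, 0.19 to 0.26 in complex IV, 0.03 to 0.15 in complex V and 0.05 to 0.17 in mitochondrial members. Members that changed sign ran from -0.03 to 0.07 (SDHD), -0.02 to 0.05 (UQCRC1), -0.06 to 0.11 (UQCRB), -0.10 to 0.01 (UQCRFS1), -0.18 to 0.09 (MT-CYB), -0.04 to 0.14 (COX5B), -0.04 to 0.03 (MT-CO2), -0.03 to 0.26 (MT-ATP8), -0.07 to 0.0034 (ATP5A1), -0.03 to 0.10 (ATP5C1), -0.04 to 0.09 (ATP5F1), -0.10 to 0.08 (ATP5G1), -0.02 to 0.15 (ATP5H) and -0.14 to 0.16 (ATP5O).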
